A study of Mus musculus with 6 samples.

Results

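Non-canonical WNT and planar polarity genes were followed in the embryonic outflow tract of the mouse, the muscular tube that carries blood out of the heart's ventricles. The set held 8 genes: the ligands Wnt5a, Wnt5b and Wnt11, the receptors Ror1, Ror2, Fzd2 and Fzd7, and the polarity protein gene Vangl2. Its members were all array probe sets whose platform annotation named 1 of these genes and no other, which gave 20 probe sets of 45037 that were not controls. Superior pools (n = 3) and inferior pools (n = 3) of outflow tract tissue were compared. Both groups came from CD1 embryos at embryonic day 10.5, with no mutation or treatment named, and the pools were numbered 1, 6 and 7 in each region. The sample labels give 6 littermate embryos per pool, while the series text gives 7 pieces, and nothing states that the pools were separate litters. A p-value here therefore reflects only how much the superior minus inferior difference varied from pool to pool, which may be technical. With 2 residual degrees of freedom per probe set, the test draws much of that variation from the other tested probe sets.

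WNT proteins are secreted lipid-modified ligands. In the non-canonical branch they act without beta-catenin: Wnt5a and Wnt11 bind Frizzled receptors and the Ror tyrosine kinase receptors, and signal through Dishevelled to small GTPases and the kinase JNK. Planar cell polarity uses many of the same proteins, among them Vangl2, to orient cells within a sheet. In mice, loss of Wnt5a, Wnt11 or Vangl2 is known to disturb the growth and alignment of the outflow tract.

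Among the 8 genes Ror1 had the largest difference in size. It had a fitted signal in superior pools 1.92 times that in inferior pools, while Ror2 was slightly lower there. Wnt5a, Wnt11 and Vangl2 were also slightly lower in superior pools, in each of the 3 pools. Their fitted differences, with the same offset, were -9.65% to -22.0% depending on the tested probe set. Fzd2, Fzd7 and Wnt5b had values on both sides of zero. None of these differences passed the test across all genes: 0 of 15 tested probe sets were called at an adjusted p of 0.05 (limma with the pool number as a block, Benjamini-Hochberg over 22518 probe sets), where 0.160% of all tested probe sets were called. The adjusted p of the members ran from 0.105 to 0.992.

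Each value is a MAS5 signal, a linear intensity relative to the rest of its array, so levels of different probe sets are not set against each other. Differences are superior minus inferior in log2(signal + 3.2), which understates the difference of dim probe sets. The highest signal among 27 bacterial control probe sets that had not been spiked in was 8.0, and signals over it are called above background. Of the 20 member probe sets 16 were above background on all 6 arrays. Tests were run on the probe sets brighter than the median, which kept 15 of the 20 and at least 1 for each of the 8 genes.

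Over the 6 arrays the median signal was 13.9 to 17.6, and 58.4% to 63.1% of probe sets were above background. Hybridisation controls of the superior 6 array read 1.63 times the median array. Both arrays of pool 1 stood apart in their control probe sets: their 18S ribosomal RNA signals were 21.3 to 103.8, against 377.8 to 785.6 in pools 6 and 7, and their ratios of the 3′ to the 5′ Gapdh probe set were 1.30 in superior and 2.21 in inferior, against 0.832 to 0.899 on the other arrays. Markers of the tissue were present: all 10 cardiomyocyte markers and all 8 endothelial and endocardial markers were above background on every array, as was the progenitor gene Isl1. In pools of whole tissue, fewer cells of a type and less RNA per cell cannot be told apart.

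Promoter sequence is shown for 4 genes. For Wnt11 and Vangl2 the brightest probe sets ran together over the arrays. The tested region differences of Ror1 and Ror2 lay on opposite sides of zero. The sequences are RefSeq's, assembly GRCm38.p6, where 6 of the 8 genes had a window. Each is printed 5′ to 3′ on the gene's strand and ends at the base before the outermost annotated gene start. Capitals mark matches, on either strand, to 1 of 5 motifs, which were chosen with the sequences in view: the TATA box (TATAAA), the CCAAT box (CCAAT), the GC box (GGGCGG), the TCF/LEF motif of canonical WNT response (ATCAAAG) and the T-box motif (AGGTGT).
Wnt11, chr7:98834862-98835083, plus strand: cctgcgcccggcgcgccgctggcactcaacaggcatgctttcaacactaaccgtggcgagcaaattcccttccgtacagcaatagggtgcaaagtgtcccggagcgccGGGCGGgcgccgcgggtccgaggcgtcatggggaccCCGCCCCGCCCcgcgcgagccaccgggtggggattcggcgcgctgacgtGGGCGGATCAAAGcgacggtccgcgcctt
Vangl2, chr1:172027319-172027545, minus strand: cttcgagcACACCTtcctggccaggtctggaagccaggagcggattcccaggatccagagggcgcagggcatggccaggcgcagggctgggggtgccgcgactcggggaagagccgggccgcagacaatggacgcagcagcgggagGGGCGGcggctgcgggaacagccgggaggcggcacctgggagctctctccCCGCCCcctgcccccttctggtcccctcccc
Ror1, chr4:100095541-100095790, plus strand: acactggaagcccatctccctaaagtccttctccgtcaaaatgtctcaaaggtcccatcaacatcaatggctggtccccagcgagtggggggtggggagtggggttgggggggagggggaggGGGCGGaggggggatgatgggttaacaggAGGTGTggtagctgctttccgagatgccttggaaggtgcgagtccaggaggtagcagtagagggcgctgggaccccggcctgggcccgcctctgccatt
Ror2, chr13:53286125-53286374, minus strand: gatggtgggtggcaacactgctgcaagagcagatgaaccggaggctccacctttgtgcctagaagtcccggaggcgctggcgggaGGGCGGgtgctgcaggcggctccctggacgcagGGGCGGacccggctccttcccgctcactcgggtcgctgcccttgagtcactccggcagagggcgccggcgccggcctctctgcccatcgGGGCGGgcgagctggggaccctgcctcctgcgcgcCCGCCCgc

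All 4 windows are rich in G and C, from 62.4% in Ror1 to 73.2% in Ror2. All 4 held the GC box, with 4 matches in Wnt11 (2 of them overlapping by 1 base), 2 in Vangl2, 1 in Ror1 and 4 in Ror2. That motif is in 32.7% of all 32851 RefSeq windows of 250 bases. At the 222 and 227 bases used for Wnt11 and Vangl2 the shares are 31.8% and 32.0%. All these shares are over windows of any base content, not windows matched to these 4 in G and C. The T-box motif matched once in Vangl2 and once in Ror1. It is in 10.6% of windows of 227 bases, the length used for Vangl2, and in 11.8% of those of 250 bases. The TCF/LEF motif matched once in Wnt11, directly beside a GC box, and is in 2.80% of windows of the 222 bases used there. The TATA and CCAAT letters were in none of the 4 windows, against 12.4% and 33.8% of all windows of 250 bases. A match describes the letters only and shows no binding.

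Ligands. Wnt5a (chromosome 14, 28504543 to 28527448, GRCm38.p6) encodes the main non-canonical ligand of growing embryonic tissues. Its brightest probe set (1436791_at) had signals of 579.6, 521.1 and 489.0 in superior pools 1, 6 and 7, against 637.2, 661.2 and 542.8 in inferior pools 1, 6 and 7. The superior value was the lower one in every pool, although the ranges overlapped. The log2 difference was -0.21 ± 0.09 (SE; 95% interval -0.41 to -0.01; limma adjusted p = 0.446). By pool it was -0.14, -0.34 and -0.15 in pools 1, 6 and 7. Another Wnt5a probe set (1437673_at) averaged 134.1 ± 14.4 in superior and 151.3 ± 29.4 in inferior pools (SD, n = 3 each), a difference of -0.16 ± 0.11. The third (1448818_at) had signals of 81.5, 163.6 and 110.7 in superior pools, against 96.0, 186.6 and 176.9 in inferior pools. Its log2 difference of -0.36 ± 0.13 (adjusted p = 0.398) included -0.66 in pool 7. The 3 tested probe sets thus gave the same sign in all 3 pools, with sizes that differed. A dim further one (1456976_at), not tested, had 10.9 to 17.3 over the arrays and was higher in superior in pool 1 only.

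Wnt11 (chromosome 7, 98835084 to 98854747) encodes a ligand made by outflow tract muscle and its precursors, and has 1 probe set (1450772_at). Its signals were 245.6, 241.8 and 284.6 in superior pools 1, 6 and 7, against 273.5, 328.1 and 346.4 in inferior pools. Superior was lower in every pool, and the highest superior value overlapped the lowest inferior one. The log2 difference was -0.29 ± 0.10 (95% interval -0.52 to -0.06; adjusted p = 0.380), or -18.2%. It was the lowest log2 difference among the brightest probe sets of the 8 genes.

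Wnt5b (chromosome 6, 119432531 to 119544824), the close paralogue of Wnt5a, was dim. Its tested probe set (1439373_x_at, of a type that may also bind related transcripts) had 16.9, 16.1 and 13.2 in superior pools, against 15.0, 14.6 and 20.9 in inferior pools. The sign differed between pools, and the log2 difference of -0.10 ± 0.23 had a 95% interval of -0.62 to 0.42. The untested probe set (1422602_a_at) had 16.9, 15.5 and 11.9 in superior pools against 5.5, 17.1 and 12.7 in inferior pools, where the lowest value lies under background. A log2 difference as large as that of Ror1 lies outside the interval of the tested probe set.

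**Figure D1:**
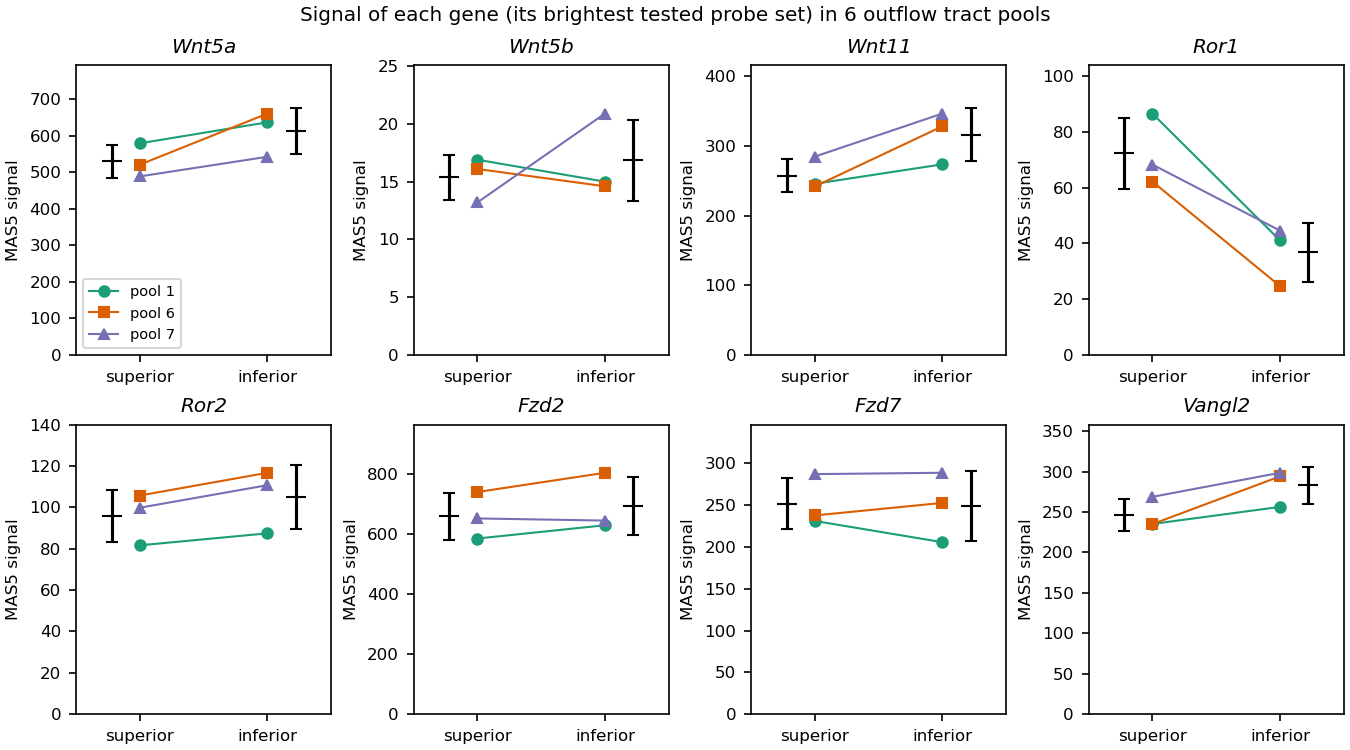
MAS5 signal (vertical axes, linear, starting at 0) of the brightest tested probe set of each gene in superior and inferior pools; lines join pools of the same number, and black bars give the mean and SD (n = 3). Ror1 lies between 62.2 and 86.6 in superior and between 24.7 and 44.6 in inferior pools, whereas the lines of Wnt5a, Wnt11, Ror2 and Vangl2 are all lower at the superior end.

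Receptors. Ror1 and Ror2 encode receptor tyrosine kinases of the plasma membrane that bind Wnt5a. The bright Ror1 probe set (1429313_at; chromosome 4, 100095791 to 100444806) had signals of 86.6, 62.2 and 68.3 in superior pools 1, 6 and 7, against 41.1, 24.7 and 44.6 in inferior pools. The groups did not overlap, which held for 9.21% of all tested probe sets in either direction and for 4.65% with superior above. The log2 difference was 0.94 ± 0.17 (95% interval 0.57 to 1.32; adjusted p = 0.105). By pool it was 1.02, 1.23 and 0.58 in pools 1, 6 and 7. By unadjusted p (0.00035) the probe set ranked 76th of 22518. It passed the adjusted threshold in 1 of the 12 other settings that tested it, the fit without pool 7 (log2 1.12, adjusted p = 0.0120). Its adjusted p was 1.00 in the fit without the pool block. Both other Ror1 probe sets lay at or under 5.3 on every array, below background, and their values ran in opposite directions, so the Ror1 difference rests on 1 probe set.

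Ror2 (chromosome 13, 53109317 to 53286124) is the paralogue through which Wnt5a is best known to act in mouse embryos. Its brighter probe set (1423428_at) had 81.7, 105.8 and 99.9 in superior pools, against 87.5, 116.8 and 110.8 in inferior pools. The superior value was lower in every pool by a similar amount, -0.10, -0.14 and -0.15 on the log2 scale, while the spread between pools was larger than the region difference. The fitted difference was -0.13 ± 0.11 (95% interval -0.38 to 0.13; adjusted p = 0.719). The dimmer probe set (1457128_at) averaged 33.4 ± 4.97 in superior and 41.4 ± 8.53 in inferior pools, a log2 difference of -0.28 ± 0.15, again negative in all 3 pools. The log2 difference of the brightest Ror1 probe set exceeded that of Ror2 by 1.11, 1.37 and 0.73 in pools 1, 6 and 7. This gap is described here after its values were seen. An exact two-sided sign-flip test on it gave p = 0.25. That is the smallest p possible with 3 pools, so the test could not decide.

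Epicardial markers were also higher in superior pools. All 11 tested epicardium markers had positive differences, and 5 of them were called, beside 0.241% of all tested genes. This list, like the others, was written with earlier results of these data known, so that comparison is no test of the list. These 5 calls were lost with the pool as a random block, with no block, and without the trend and robust variance, where limma called 0 probe sets in all. Most were also lost with no filter, where limma called 1 probe set in all, and in the top 25% by signal, where it called 2. In the paired limma fit 10 of the 11 had an unadjusted p under 0.05. Their median was 1.06 on the log2 scale. Within pools 1, 6 and 7 the median was 1.74, 1.13 and 0.69. The summed signal of the 12 markers was 1359 to 2349 in superior and 823.7 to 1098 in inferior pools. Among them Aldh1a1, an enzyme of retinoic acid synthesis, had a log2 difference of 2.47 ± 0.28 (adjusted p = 0.0411). Its inferior 7 signal of 4.7 was under background, and the difference was 3.44 in that pool, beside 2.09 and 1.87 in pools 1 and 6. Tcf21, a transcription factor of epicardial cells, had 0.69 ± 0.09 (adjusted p = 0.0479). The mesothelial gene Msln was never above background. The part of these cells in the Ror1 difference was not tested.

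Fzd2 and Fzd7 encode closely related Frizzled receptors, which can carry both canonical and non-canonical signals. The brightest Fzd2 probe set (1418534_at; chromosome 11, 102604431 to 102608058) had 585.1, 740.0 and 652.0 in superior pools, against 629.3, 804.1 and 644.9 in inferior pools. The regions overlapped almost wholly, and the log2 difference of -0.07 ± 0.08 had a 95% interval of -0.26 to 0.12. The other Fzd2 probe sets gave -0.0060 ± 0.13 (1418532_at) and 0.06 ± 0.10 (1418533_s_at, of a type that matches several transcripts), with pool 6 negative and pools 1 and 7 positive in both.

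The bright Fzd7 probe set (1450044_at; chromosome 1, 59482147 to 59486955) had 231.0, 237.6 and 287.0 in superior pools, against 205.6, 252.6 and 288.6 in inferior pools. The means of 251.9 ± 30.6 in superior and 248.9 ± 41.6 in inferior pools (SD, n = 3 each) lay within each other's spread, and the log2 difference was 0.02 ± 0.10 (95% interval -0.20 to 0.25). These intervals hold differences of up to about 0.29 in size for the 3 tested Fzd2 probe sets and 0.25 for Fzd7. The dim Fzd7 probe set (1450043_at) was above background on 1 of 3 superior and 0 of 3 inferior arrays and was not tested.

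Polarity protein. Vangl2 (chromosome 1, 172000960 to 172027318) encodes a membrane protein of the core planar polarity complex. Its brightest probe set (1436118_at) had 235.3, 235.1 and 268.8 in superior pools 1, 6 and 7, against 256.4, 294.1 and 298.6 in inferior pools. Superior was lower in every pool, with 1 superior value reaching into the inferior range. The log2 difference was -0.20 ± 0.10 (95% interval -0.42 to 0.02; adjusted p = 0.497). The second probe set (1419218_at) had 69.9, 74.0 and 75 in superior pools, against 77.6, 79.5 and 92.6 in inferior pools. Here the groups did not overlap, as in 4.56% of all tested probe sets with superior below, although the log2 difference of -0.18 ± 0.12 was no larger. The third (1455592_at) gave -0.15 ± 0.14, so all 3 probe sets had the same sign in all 3 pools.

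**Figure D2:**
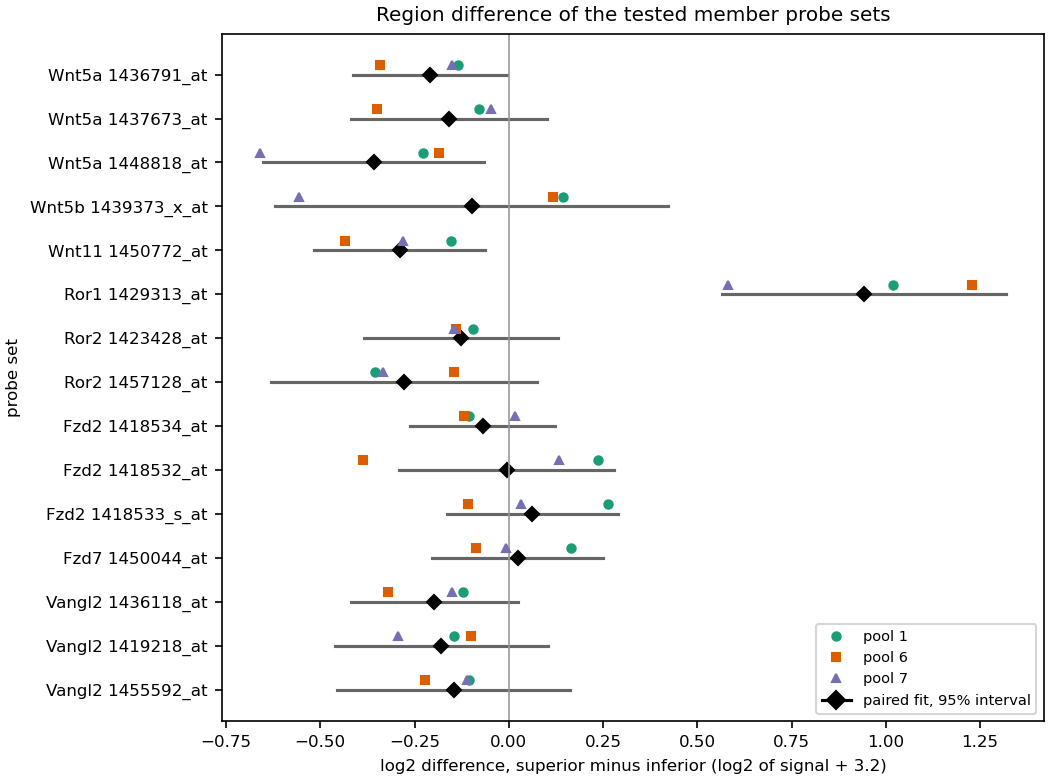
Log2 difference, superior minus inferior, of the 15 tested probe sets; diamonds and bars are the paired fit and its 95% interval, and coloured marks are the 3 pools. The Ror1 interval of 0.57 to 1.32 lies apart from all others, and the marks of all 3 pools lie left of zero for the tested probe sets of Wnt5a, Wnt11, Ror2 and Vangl2.

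Counted over the 15 tested probe sets, 9 were lower in superior in all 3 pools, as were 19.0% of all tested probe sets, and 1 was higher in all 3, as were 15.0%. Probe sets of 1 gene share their transcript. By gene, with the brightest probe set each, 4 of 8 were lower in all 3 pools (17.1% of 11195 genes) and 1 of 8 was higher (17.9%). At an unadjusted p of 0.05, 3 probe sets were lower (6.00% of all) and 1 was higher (4.98%). The 3 were the Wnt11 probe set and 1436791_at and 1448818_at of Wnt5a, and the 1 was Ror1. By sign alone 12 of 15 were below 0 (55.1%). The median log2 difference of the 8 genes was -0.11, beside -0.0028 over all 11195 genes. The negative sign of the 9 probe sets was kept in every other setting that tested them. Only the normalization settings could have turned it, since these probe sets were chosen as negative in all 3 pools.

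Most markers of progenitor and neural crest cells were also lower in superior pools. Of 6 tested second heart field markers 4 were lower in all 3 pools, as were 17.1% of all tested genes. Among the 4 was the ligand gene Fgf8 (log2 -1.03 ± 0.17, limma adjusted p = 0.0932). The median difference of the 6 was -0.12, -0.12 and -0.64 in pools 1, 6 and 7. The summed signal of the list was 2648 to 3367 in superior and 2867 to 3773 in inferior pools. Of 6 tested neural crest markers 5 were lower and 1 was higher in all 3 pools, the lower ones including the homeobox gene Dlx2 (-0.99 ± 0.20, adjusted p = 0.155). Their summed signal was 867.1 to 1186 in superior and 1094 to 1497 in inferior pools, and Foxd3 was never above background. Of 8 cushion mesenchyme markers 3 were lower in all 3 pools and 1 was higher, with summed signals of 10404 to 14259 in superior and 9508 to 13023 in inferior pools. None of these 20 markers was called, and their part in the values of Wnt5a, Wnt11, Ror2 and Vangl2 was not tested.

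**Figure D3:**
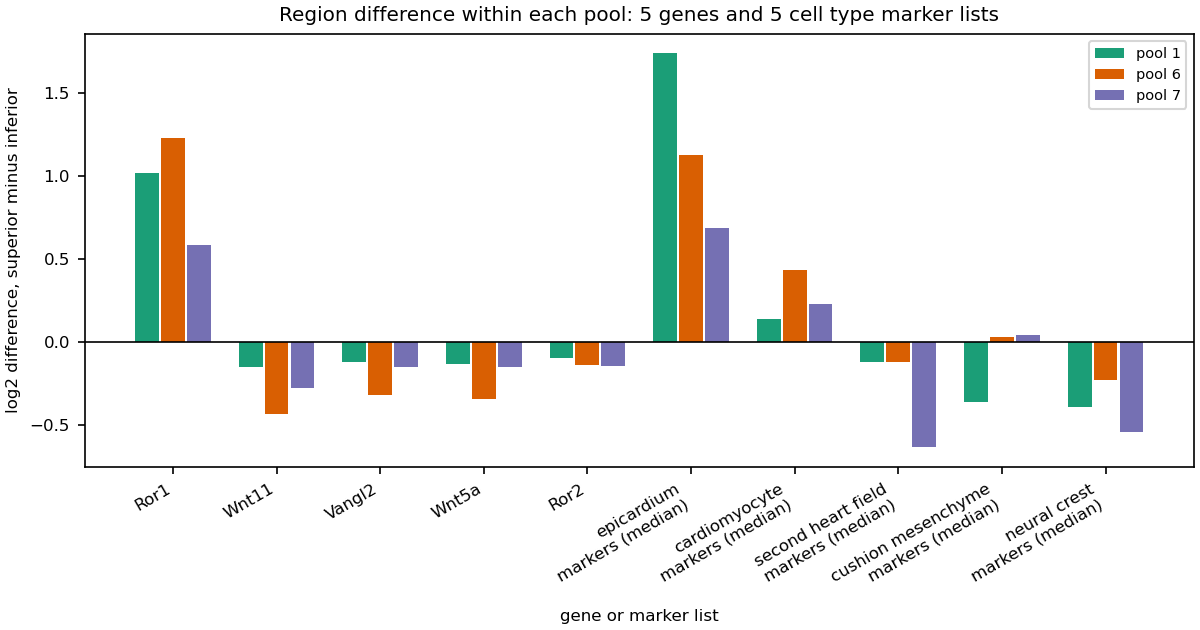
Log2 difference, superior minus inferior, within pools 1, 6 and 7 for the brightest probe sets of 5 genes and for the medians of 5 marker lists. Ror1 (0.58 to 1.23) and the medians of epicardium (0.69 to 1.74) and cardiomyocyte markers (0.13 to 0.43) are positive in all 3 pools. Wnt11, Vangl2, Wnt5a, Ror2 and the second heart field and neural crest medians are negative in all 3. The cushion mesenchyme median is negative in pool 1 only.

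Of the remaining lists, cardiomyocyte markers had 9 of 10 positive differences and a median of 0.24, and Nppa, a natriuretic peptide gene of chamber muscle, had 2.24 ± 0.30 (adjusted p = 0.0622). Smooth muscle markers had a median of 0.13 over 4 tested genes, endothelial and endocardial markers 0.03 over 8, and erythroid markers 0.21 over 5, with 0 called in each. The summed cardiomyocyte signal was 34248 to 40267 in superior and 30283 to 31150 in inferior pools, and its part in the member values was not tested.

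Several probe sets of the same gene disagreed in how pool 1 stood to the others. The third Vangl2 probe set (1455592_at) had 25.8 in superior 1 and 28.0 in inferior 1, but 71.1 and 72.9 in superior pools 6 and 7 and 83.5 and 79.0 in inferior pools 6 and 7. Its mean in pool 1 was 0.351 of that in pools 6 and 7, where the brightest Vangl2 probe set stood at 0.897. The Wnt5a probe set 1448818_at was at 0.557, against 1.10 for the brightest, and the Fzd2 probe sets 1418532_at and 1418533_s_at were at 0.575 and 0.627, against 0.855. The dimmer Ror2 probe set (1457128_at) went the other way, at 1.34 against 0.781 for the brightest. The pool 1 arrays are those whose 18S and Gapdh controls stood apart, and the part of RNA quality was not tested.

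Over the 6 arrays the brightest probe sets of Wnt11 and Vangl2 ran almost in parallel, with a Pearson correlation of log2 values of 0.99. Both were low in superior 1 and superior 6 and high in inferior 6 and inferior 7. The third Vangl2 probe set (1455592_at) ran otherwise. It had 28.0 in inferior 1 and 71.1 in superior 6, where Wnt11 had 273.5 and 241.8. Of the other pairs, Ror2 and Fzd2 reached 0.82, and Ror1 correlated negatively with Vangl2 (-0.72), Wnt11 (-0.71), Wnt5a (-0.68), Fzd2 (-0.67) and Ror2 (-0.63). The correlation of Ror1 was 0.05 with Wnt5b and 0.01 with Fzd7. Region means were not removed, so these correlations include the region differences given above. These 6 arrays share pools and scaling, and between 57 (Wnt5b) and 1103 (Ror2) probe sets of other genes correlated at 0.9 or more with a member, of 19605 and 19604 compared. The gene most like Wnt11 was Fam160a2 (0.996), with Vangl2 next. For Vangl2 it was Wnt11, then Tbl1x (0.99). The genes most like Ror1 were Ptcd3 (0.999; log2 difference 0.54) and 2810004N23Rik (0.99), and those most like Ror2 were Cachd1 (0.998) and Metrn (0.997). For Wnt5a they were Rnft1 (0.996) and Ankrd44 (0.995), for Wnt5b Saal1 (0.983) and Sp7 (0.971), for Fzd2 Mecom (0.994) and Adamts8 (0.993), and for Fzd7 Haghl (0.992) and U2af1 (0.988).

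Other genes of the pathway were read from 4 lists of 66 genes, of which 62 had a probe set and 47 were tested. Of these 47 genes 0 were called, and at an unadjusted p of 0.05 limma passed 5 lower (5.30% of all genes) and 2 higher (6.07%). By sign 32 were lower in superior pools and 15 higher, and 50.8% of all tested genes were lower.

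The planar polarity list held core genes and genes outside the core complex, among them Fat4, Dchs1, Fjx1 and Intu. Of its 15 tested genes 13 were lower, with a median log2 difference of -0.08. Of the 15, 4 were lower in all 3 pools, as were 17.1% of all tested genes. Fat4, a giant protocadherin, had 185.5, 229.5 and 156.0 in superior pools, against 291.1, 235.4 and 203.9 in inferior pools, a log2 difference of -0.35 ± 0.13 (adjusted p = 0.402). Dchs1, the protocadherin that binds Fat4, had 61.9, 64.3 and 62.2 in superior pools, against 83.1, 81.4 and 75.1 in inferior pools. Its regions did not overlap, as in 4.09% of all tested genes with superior below, and the difference was -0.33 ± 0.13 (adjusted p = 0.417). Dvl2, a Dishevelled adaptor, had -0.28 ± 0.16, with pool 7 slightly positive. Fat4 and Dchs1, named for their large differences within the list, were thus lower in superior in every pool, as Vangl2 was. None of the 3 passed the test.

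Among other Frizzled receptors and WNT co-receptors, 8 of 11 tested genes were lower, with a median of -0.15. Of the 11, 2 were lower in all 3 pools, near the 17.1% of all tested genes. Fzd9, named for its large difference within the list, had 47.7, 52.2 and 47.0 in superior pools, against 84.2, 60.9 and 58.2 in inferior pools. Its log2 difference was -0.43 ± 0.16 (limma adjusted p = 0.410). The regions did not overlap, as in 4.09% of all tested genes with superior below. Ptk7, a pseudokinase receptor of planar polarity, had -0.33 ± 0.17, with equal signals of 23.9 in both regions of pool 1. Ryk, a WNT receptor without kinase activity, had 0.26 ± 0.12, while its other tested probe set gave -0.02.

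Other WNT ligands had 5 of 16 genes tested, 3 higher and 2 lower, with a median log2 difference of 0.14. Wnt2, a ligand of the early heart, had 78.4, 72.7 and 155.9 in superior pools, against 68.2, 60.0 and 114.5 in inferior pools, a log2 difference of 0.30 ± 0.12 (adjusted p = 0.434). Wnt9a had 0.33 ± 0.15 and Wnt6 -0.26 ± 0.20. In all 3 pools Wnt2 and Wnt9a were higher in superior, as were 17.9% of all tested genes, the opposite sign to Wnt5a and Wnt11. Wnt1, Wnt2b, Wnt3, Wnt8a, Wnt8b and Wnt10b, picked out after their values were seen, were not above background on any array.

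Cytoplasmic effectors had 16 tested genes, 9 lower and 7 higher, with a median of -0.02. Rnd3, a regulator of the actin cytoskeleton, had 502.5, 436.9 and 511.0 in superior pools, against 437.1, 386.7 and 382.2 in inferior pools, a log2 difference of 0.26 ± 0.09 (adjusted p = 0.395). Daam1, a formin that binds Dishevelled, had 0.21 ± 0.10 with its brightest probe set, but its 3 tested probe sets ranged from -0.39 to 0.21. Dact1, a Dishevelled-binding regulator, had -0.18 ± 0.14, which came from -0.64 in pool 6 beside 0.01 and 0.09 in pools 1 and 7.

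**Figure D4:**
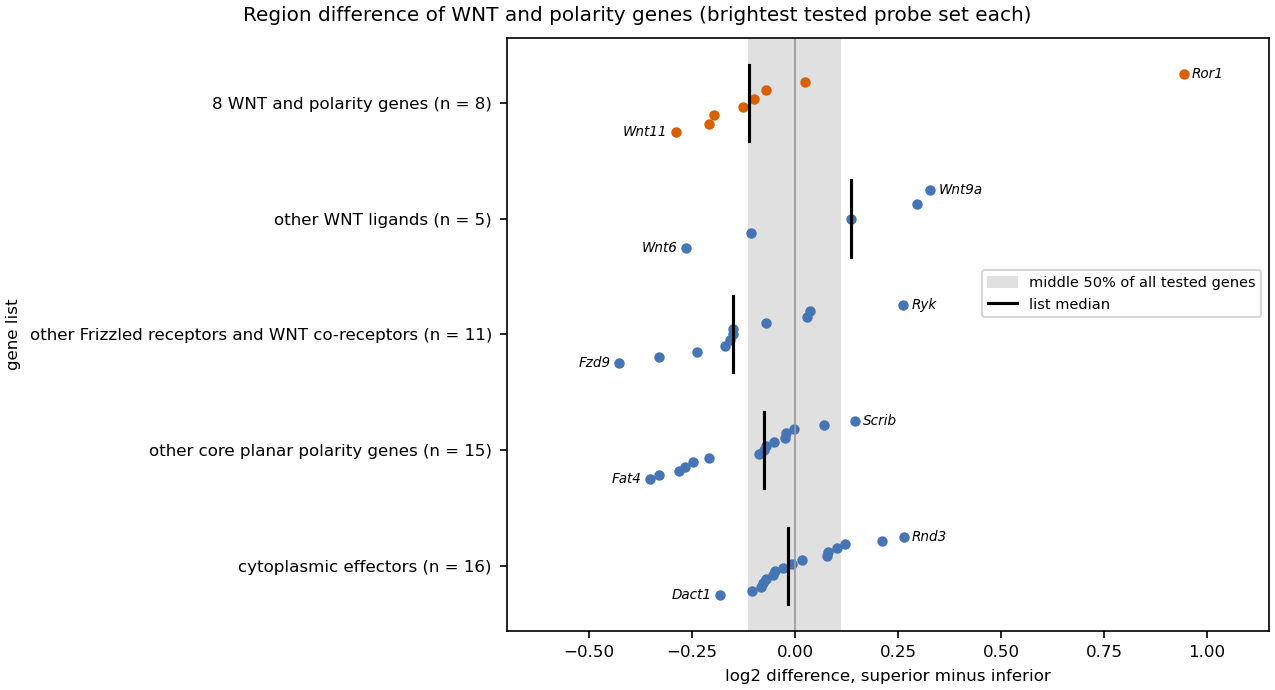
Log2 difference, superior minus inferior, of each gene by its brightest tested probe set, in the 8 WNT and polarity genes and the 4 other lists; black bars are list medians, and the grey band spans the middle 50% of all 11195 tested genes (-0.11 to 0.11). Ror1 lies at 0.94, beyond every gene of the other lists, which run from -0.43 (Fzd9) to 0.33 (Wnt9a). The list labelled core planar polarity also holds genes outside the core complex, among them Fat4 and Dchs1.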

How the data were processed

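RNA from 3 superior and 3 inferior pools was measured on Affymetrix Mouse Genome 430 2.0 arrays. The deposited values are linear intensity signals, 1 per probe set and array, made by the authors with MAS5 per the submitters' processing notes without a version in the sources used here. The method subtracts mismatch from perfect-match probes, which makes dim probe sets noisy, and each array has a 2% trimmed mean of 100 in the deposited values.

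Of 45101 probe sets 64 were controls. Of the rest, 34945 named 1 gene, 932 several and 9160 none here. Gene positions are from RefSeq, GRCm38.p6. Signals became log2(signal + 3.2), the offset being the 25th percentile of signals. The 22518 probe sets above the median mean (a signal of about 15.1) were tested with limma 3.58.1 in R 4.3.3 (trend and robust eBayes) with the pool number as a block and Benjamini-Hochberg adjustment. The pairing was checked on deviations from region means. Same-numbered arrays correlated at 0.79, 0.43 and 0.51 for pools 1, 6 and 7. Arrays of pools 6 and 7 with unlike numbers correlated at 0.18 and 0.20, and those of pool 1 with another pool at -0.54 to -0.46. The check does not show whether same-numbered samples came from the same embryos. The script was tested on simulated data. Arrays carry no read depth. Precision is limited by the number of arrays.

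The members and gene lists were chosen with earlier results of these data known. Text names all member probe sets, the 3 genes with the largest absolute difference per pathway list (by brightest tested probe set), the brightest or most different markers, and the 2 genes most correlated with each member. The 13 alternatives covered the block, offset, filter, variance model, normalization and each pool left out.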

Additional observations from a re-analysis of the deposited data

How the results depend on the processing

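Under the 13 alternatives the count of called member probe sets was 0, except without pool 7, where Ror1 was called (leaving out 1 pool gave 0 to 1), and 0 of the other pathway genes were called in any. The count of all called probe sets was 36. It was 0 with no replicate block, where the smallest adjusted p over all probe sets was 0.755 and every member had 1.00, and 0 with the pools paired through a random block. It was also 0 without the trend and robust variance, 22 with an offset of 1, 1 with no filter and 2 in the top 25% by signal, and leaving out 1 pool gave 9 to 231. Ror1 ranged from 0.75 to 1.12 on the log2 scale. Of 15 member values 11 kept their sign throughout, although only a change of normalization could turn a sign shared by all pools. The others, all close to zero, turned: Fzd2 (1418532_at) to 0.033 under 75th percentile scaling. Leaving out 1 pool gave -0.13 to 0.18 for that probe set (positive without pool 6) and -0.038 to 0.15 for Fzd2 1418533_s_at. It gave -0.048 to 0.079 for Fzd7 (both negative without pool 1) and -0.22 to 0.13 for Wnt5b (positive without pool 7). The cause was not tested. With a pool left out 1 residual degree of freedom remains, so those counts rest on variance shared across probe sets.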

Other observations

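The WNT ligand genes Wnt16 and Wnt10a, picked out after their values were seen, were too dim to be tested, and all their inferior signals lay under the background of 8.0. Wnt16 had signals of 8.5, 14.1 and 7.1 in superior pools 1, 6 and 7, against 4.5, 2.4 and 5.3 in inferior pools. Wnt10a had 7.8, 8.5 and 8.5 in superior pools, against 3.0, 7.2 and 6.0 in inferior pools. For both genes 2 superior arrays and 0 inferior arrays were above background, so no difference is given.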
